A study of Mus musculus with 2 samples.

Results

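The 10 genes described here belong to the Notch pathway of the newborn mouse ovary: the receptors Notch1, Notch2, Notch3 and Notch4, the ligands Jag1, Jag2 and Dll4, and the target genes Hes1, Hey1 and Heyl. Every probe set with a single gene symbol in the platform annotation that named a member was taken, which gave 21 probe sets for 10 of the 18193 genes named on the array. The control pool, Amhr2(+/+)-SmoM2, and the mutant pool, Amhr2(cre/+)-SmoM2, each combined ovary RNA of 8 mice at 2 days of age and were each hybridised to 1 Affymetrix array. SmoM2 is a constitutively active Smoothened, the protein that relays the hedgehog signal into the cell. It is carried by both pools, and Cre from the Amhr2 locus, which is active in gonadal somatic cells, was present in the mutant pool only. Cre, the altered Amhr2 copy and SmoM2 activation differ together between the pools, so their effects cannot be told apart. The study asked how over-active hedgehog signalling changes gene expression in the ovary. With 1 array per pool there is no replicate check and no p-value, and all values describe these 2 arrays.

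Notch receptors are membrane proteins that are cut when a ligand of the Jagged or Delta-like family on a neighbouring cell binds them. The freed intracellular part enters the nucleus, joins the DNA-binding protein Rbpj and switches on genes of the Hes and Hey families, which encode transcriptional repressors. In the ovary the pathway is known for signalling from Jagged ligands on oocytes to receptors on pregranulosa cells, for example through Notch2. In blood vessels, Notch1, Notch4 and Dll4 act in endothelium and Notch3 in pericytes and smooth muscle.

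Among the members, the receptors Notch3 and Notch4 had higher signals in the mutant pool and the ligand Jag2 had a lower signal. On measured probe sets no log2 ratio, taken after adding a pseudocount, reached 2-fold, although the Notch4 fold is only a lower bound. Notch3 was 1.59-fold higher on its brighter probe set, Notch4 at least 1.71-fold higher, and Jag2 1.95-fold lower on its dimmer probe set. Hes1 was 1.35-fold lower, while Hey1 and the brightest Heyl probe set were 1.13-fold and 1.28-fold higher. Notch1, Notch2 and Jag1 each differed by less than 1.5-fold on every measured probe set.

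A probe set was counted as measured when its higher signal reached 80.7, which is the median over the 2 arrays together. Of the 21 probe sets 15 were measured, 14 of them in both pools and 1, for Notch4, through the mutant pool alone. The latter could only be counted because it was higher there. The other 6 stayed under the minimum in both pools, and they included both Dll4 probe sets, so Dll4 is the member with no measured level. Differences are given as the log2 ratio of mutant to control after adding 22.2 to both signals, a scale that understates the change of dim probe sets. A fold is the plain quotient of the 2 signals.

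By the log2 ratio, 2 of the 15 measured probe sets passed 1.5-fold upward and 1 passed it downward. Over all 20576 measured named probe sets the shares were 8.81% higher and 9.87% lower. At 2-fold the members' counts were 0 and 0, against 2.89% higher and 2.04% lower over all measured probe sets. These counts are near the background shares. With each gene represented by its brightest measured probe set, 2 of 9 genes were at least 1.5-fold higher and 0 lower, where 9.32% and 7.90% of the 12308 measured genes were. The median log2 ratio of the 9 genes was 0.21, and that of all measured genes was -0.02. The spread that the arrays do offer is that between measured probe sets of the same gene, with an SD of 0.38 on the log2 ratio over 13386 probe sets of 5118 genes. When the measured probe sets were divided by signal into 4 equal classes, it was 0.48 in the dimmest class and 0.32 in the brightest. The log2 ratios of 10 of the 15 measured member probe sets lay within 1 such SD of 0, and 64.0% of all measured probe sets did.

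**Figure D1:**
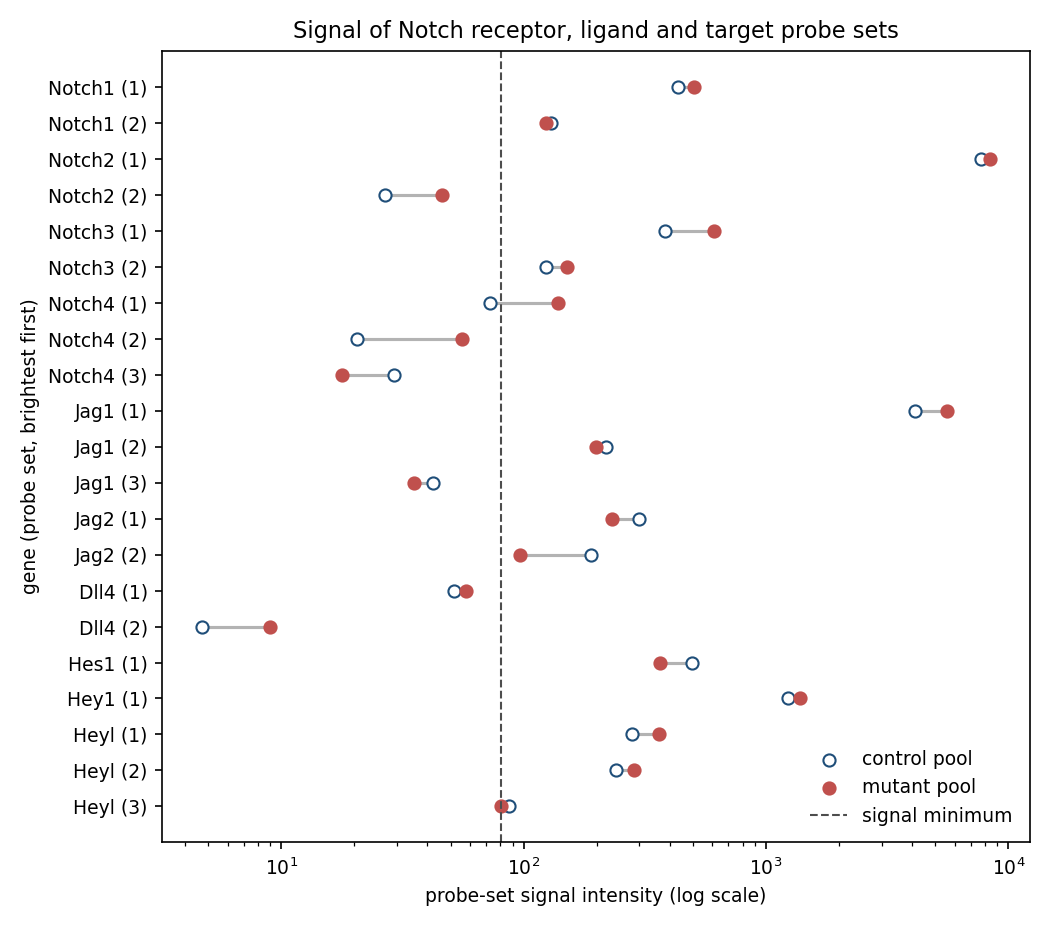
Signal intensity (log axis) of each of the 21 member probe sets in the control pool (open circles) and the mutant pool (filled circles), 1 array each, with the probe sets of a gene ordered from the brightest. The dashed line is the signal minimum of 80.7, and the pairs of points lie close together except for Notch3, Notch4, Jag2 and some probe sets under the minimum.

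The receptors gave 9 probe sets, of which 6 were measured and 5 of these had log2 ratios above 0, where 45.7% of all measured named probe sets did. Notch3, the receptor of vascular mural cells, had a control signal of 383.8 and a mutant signal of 609.7 on its brighter probe set, a log2 ratio of 0.64. This probe set is of a kind that can detect several transcripts. The second Notch3 probe set read 124.1 and 150.4, 1.21-fold higher, with a log2 ratio of 0.24. Both Notch3 probe sets were thus higher in the mutant pool, and the dimmer lay within the SD between probe sets of a gene. Of all measured probe sets 7.45% had a log2 ratio as high as the brighter Notch3 value or higher.

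Notch4, a receptor found mainly in endothelium, gave a control signal of 72.7 and a mutant signal of 138.3, with a log2 ratio of 0.76. Its control signal was under the minimum, so the fold of at least 1.71 is the mutant signal over 80.7. The other 2 Notch4 probe sets stayed under the minimum and went opposite ways, at 20.6 and 55.8 in control and mutant on the first and 29.1 and 17.8 on the second.

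Notch1, the receptor that endothelium and many progenitor cells use, read 433.3 and 506.2 in control and mutant (log2 ratio 0.21). Its dimmer probe set read 129.5 and 123.7 (-0.06). The pools differed on Notch1 in opposite directions on its probe sets, and by less than the SD both times. Notch2, the main receptor of pregranulosa and granulosa cells, was bright in both pools, with a control signal of 7693.7 and a mutant signal of 8426.9, 1.10-fold higher (log2 ratio 0.13). Its second probe set was under the minimum, at 26.7 and 46.2.

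The stretches just upstream of Notch3 and Notch4 are printed because these are the members with a gene-level difference past 1.5-fold. They come from RefSeq promoters of the GRCm38.p6 build, 250 bases before to 50 after the gene start of the promoter entry. That start can lie inside the annotated gene, and the stretches are cut to the bases outside that gene. Capitals mark matches to the N-box CACNAG, a sequence bound by Hes repressors, on either strand. The Notch3 stretch is chr17:32166897-32167140 on the minus strand and the Notch4 stretch chr17:34564045-34564285 on the plus strand, each given 5′ to 3′.
Notch3: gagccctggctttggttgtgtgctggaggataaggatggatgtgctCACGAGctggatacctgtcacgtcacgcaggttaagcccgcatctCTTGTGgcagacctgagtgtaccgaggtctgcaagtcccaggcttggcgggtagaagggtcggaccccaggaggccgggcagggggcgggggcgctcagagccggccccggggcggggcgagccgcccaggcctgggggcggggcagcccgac
Notch4: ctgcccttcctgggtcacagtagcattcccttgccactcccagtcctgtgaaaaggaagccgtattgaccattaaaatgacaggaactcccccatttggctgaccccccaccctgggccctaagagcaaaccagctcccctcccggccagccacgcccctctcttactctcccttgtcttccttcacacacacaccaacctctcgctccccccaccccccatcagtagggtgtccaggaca

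The RefSeq table held promoters of 7 members, the receptors and the ligands, and the targets Hes1, Hey1 and Heyl were not matched. In the full window of 300 bases, 4 of the 7 promoters held the N-box, which 42.5% of all 32851 promoters of this length hold. The Notch3 promoter held it at 204 to 199 and at 159 to 154 bases before the gene start of its promoter entry. That start lies a few bases inside the annotated gene, so these positions do not count from the end of the printed stretch. The Notch4 promoter did not hold the N-box. The Rbpj core TGGGAA, searched on both strands, was in 0 of the 7 promoters and in 25.6% of all promoters, and its longer form GTGGGAA, which contains the core, was in 0 and in 6.38%. The Gli core GACCACCCA was in 0 of the 7 and in 0.253% of all promoters, and the E-box CACGTG in 0 and in 7.15%. A match or its absence describes these letters in this window only. The Jag2 window, chr12:112929446-112929745 on the minus strand, lies wholly inside the annotated gene, which spans 112907803-112929812. It thus holds no sequence upstream of that gene.

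The ligands differed from the receptors in that Jag2 was lower on both probe sets. Jag2, a Jagged ligand, gave a control signal of 300.4 and a mutant signal of 230.7 on its brighter probe set, 1.30-fold lower (log2 ratio -0.35). On the dimmer probe set it read 189.0 and 96.9, 1.95-fold lower (log2 ratio -0.83). Of all measured probe sets 4.09% had a log2 ratio as low as the dimmer Jag2 value or lower, and 22.0% as low as the brighter. The log2 ratios of the Jag2 probe sets differed from each other by 0.48.

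Jag1, the ligand of oocytes and of arterial endothelium, gave a control signal of 4137.0 and a mutant signal of 5563.7 on its bright probe set, 1.34-fold higher (log2 ratio 0.43). A second probe set read 217.9 and 199.8 (log2 ratio -0.11), and the third was under the minimum at 42.4 and 35.2. The bright Jag1 probe set was thus the only one of the gene's 3 with a higher mutant signal. Dll4, the Delta-like ligand of sprouting vessels, read 51.8 and 57.6 in control and mutant on its brighter probe set and 4.7 and 9.0 on the other. No fold is given for Dll4, because all 4 values were under the minimum.

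The targets gave 5 probe sets, all measured. Hes1, a repressor that Notch induces in many tissues, gave a control signal of 493.4 and a mutant signal of 365.1 on its single probe set, 1.35-fold lower with a log2 ratio of -0.41. A log2 ratio as low or lower was found in 17.9% of all measured probe sets. Hey1, a related repressor of vessels and mesenchyme, read 1227.0 and 1383.0, with a log2 ratio of 0.17. Heyl, the member of the family that Notch3 induces in smooth muscle, read 281.0 and 360.8 (log2 ratio 0.34), 240.5 and 284.9 (0.23), and 87.1 and 80.9 (-0.08) in control and mutant on its 3 probe sets. Hes1 was thus lower and Hey1 and the brighter Heyl probe sets higher, all by less than 1.5-fold, and the log2 ratio of Hes1 alone lay beyond the SD of 0.38.

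**Figure D2:**
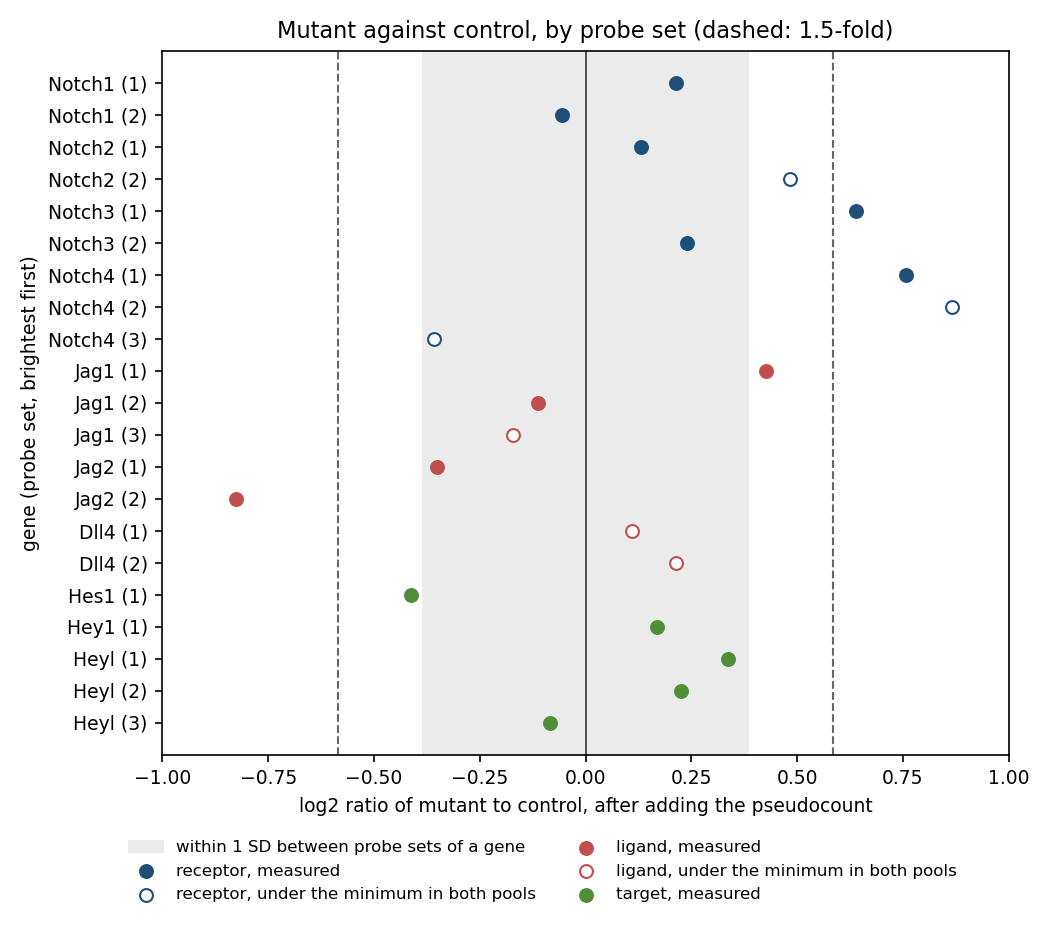
Log2 ratio of mutant to control signal for the 21 member probe sets, coloured by receptor, ligand and target, with open circles for probe sets under the signal minimum in both pools. The grey band is 1 SD (0.38) between measured probe sets of a gene and the dashed lines mark 1.5-fold; of the measured probe sets, 1 of Notch3 and 1 of Notch4 lie above the upper line and 1 of Jag2 below the lower line.

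**Figure D3:**
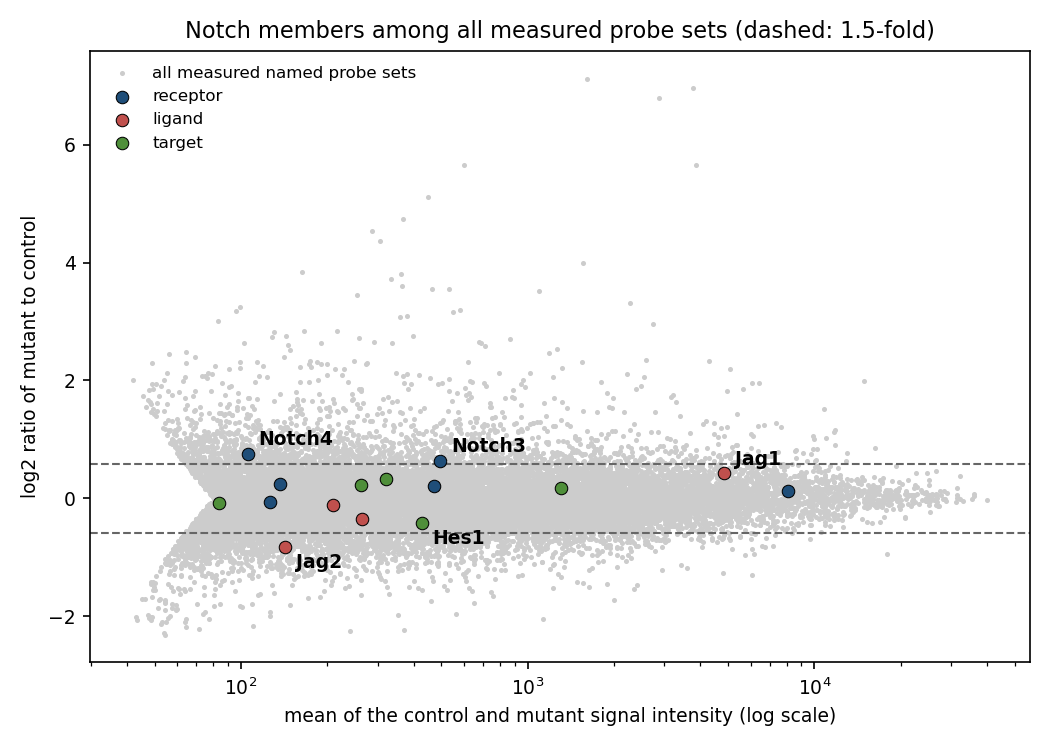
Log2 ratio of mutant to control against the mean of both signals (log axis) for the 20576 measured named probe sets (grey), with the 15 measured member probe sets coloured by role. The members lie inside the grey cloud, between log2 ratios of -0.83 and 0.76.

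The other genes of the pathway, a list of 50 genes with roles as ligands, sugar transferases, proteases, nuclear partners, ubiquitin ligases and targets, went both ways. Of these 38 were measured, 8 were under the minimum and 4 were not analysed here. By the log2 ratio of the brightest probe set, 2 of the 38 passed 1.5-fold upward and 5 passed it downward. These counts can be read against the 9.32% and 7.90% over all measured genes. The median log2 ratio was -0.08. Among the ligands, Dlk1, an imprinted Delta-like protein without the usual receptor-binding domain, was 1.52-fold higher (2485.8 in the control, 3785.7 in the mutant). The other measured Dlk1 probe set had a log2 ratio of 0.34, short of 1.5-fold. Dll3, a Delta-like ligand that blocks signalling within a cell, was 1.86-fold lower (239.9 and 129.1). Mfng, which adds sugars to the receptors, was 1.70-fold lower, at 145.0 and 85.3.

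Within gamma-secretase, the protease complex that frees the intracellular part of Notch, 5 of 7 listed genes were measured. On their brightest probe sets all 5 had log2 ratios under 0, between -0.93 and -0.04, and 1 of them was past 1.5-fold. Of all measured genes 47.5% had log2 ratios above 0. Aph1a, at -0.04, had 0.21 on another measured probe set. Aph1a was named, and the genes were grouped by role, with their values already seen. Psen2, a catalytic subunit, was 1.99-fold lower (control 471.9, mutant 236.7). Aph1b, a scaffold subunit, was 1.52-fold lower by its plain signals (748.9 and 493.2), but its log2 ratio of -0.58 fell just short of the 1.5-fold line at 0.585, so it is not counted. The complex is described only in part.

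In the nucleus, the 7 measured genes of 10 listed include Rbpj and its coactivators and corepressors. On their brightest probe sets they lay between log2 ratios of -0.19 and 0.50, and Snw1 had -0.81 on another measured probe set. Of the 11 measured regulators of trafficking and ubiquitination of 12 listed, 1 passed 1.5-fold on its brightest probe set. It was Dtx2, a Deltex ubiquitin ligase, 1.57-fold lower (3104.6 and 1971.6), and its other measured probe set had a log2 ratio of -0.67. On probe sets other than the brightest, Dtx4 had 1.08 and Mib1 had -0.44 and 0.67. Snw1, Dtx4 and Mib1 were named with their values already seen. Of 8 further Hes, Hey and other target genes 4 were measured. Hes6, a family member that opposes Hes1, was 1.61-fold lower, at 440.2 and 273.0. Bhlhe40, a stress-responsive repressor that other pathways induce as well, was 1.95-fold higher, with signals of 228.6 and 444.7. Hey2 (log2 ratio 0.27) and Nrarp (-0.20) are named here with their values already seen, and Hes2, Hes3, Hes5 and Hes7 were under the minimum.

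Marker genes of the cells in which the members act differed between the pools too, and fewer cells of a type and less RNA per cell cannot be told apart in such pools. Of 16 endothelial markers 15 were measured. Their log2 ratios had a median of 0.32, 3 passed 1.5-fold upward by the log2 ratio and 0 downward, and their summed signal was 5862.5 and 7481.0 in control and mutant, 1.28-fold higher. The endothelial list was led by Sox18 (log2 ratio 0.84), Pecam1 (0.61) and Eng (0.60), and Tie1 was under the minimum. Of the 15 markers 11 had log2 ratios above 0, and the lowest was -0.31. Over all measured genes, 9.32% passed 1.5-fold upward, 7.90% passed it downward and 47.5% had log2 ratios above 0. Pecam1 was measured through the mutant pool alone, at 68.8 and 116.7 in control and mutant, and its bound is at least 1.45-fold higher. The part of these markers in the Notch4 difference was not tested. Of 12 pericyte and smooth muscle markers 11 were measured, with a median of 0.09, 2 past 1.5-fold upward and 2 downward by the log2 ratio. Their summed signal was 15202.1 and 21993.0, and Myocd (log2 ratio -0.85) and Pdgfrb (0.84) were measured in both pools. Acta2, named with its values already seen, read 7247.6 and 12202.7 in control and mutant, the largest signals of this list. The sum thus depends largely on this gene. Des, counted among the 2 downward, read 91.4 and 12.1 in control and mutant. The mutant signal is under the minimum, so its bound is only at least 1.13-fold lower. Their part in the Notch3 and Heyl values was not tested.

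The sending and receiving cell types of the oocyte to pregranulosa signal had mostly lower marker signals in the mutant pool. Of 11 measured pregranulosa and granulosa markers of 12 listed, 8 were at least 1.5-fold lower and 0 higher, and 2 had log2 ratios above 0. The median log2 ratio was -0.84, with summed signals of 28697.0 and 16149.7. The largest were Amhr2 (-1.30), Lgr5 (-1.23) and Runx1 (-1.10), and Amh was under the minimum. Amhr2 and Runx1 also had measured probe sets with log2 ratios of only -0.26 and -0.25. Amhr2 is also the gene into which Cre was placed. Of 11 measured oocyte markers of 12 listed, 6 were at least 1.5-fold lower and all 11 were under 0 on their brightest probe sets. The median was -0.66, and the summed signals were 42314.5 and 26577.1. Sohlh1 (-1.21), Uchl1 (-1.13) and Figla (-0.96) led this list, and Bmp15 was under the minimum. Kit, named with its values already seen, had a log2 ratio of 0.13 on its other measured probe set. Beside these medians, Notch2 and the bright Jag1 probe set had log2 ratios of 0.13 and 0.43, and Jag2 and Hes1 had -0.35 and -0.41. The part of the germ cell and pregranulosa markers in the Jag2 and Hes1 values was not tested.

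Leukocyte markers, with 7 of 8 measured, had a median of 0.40 and 3 at least 1.5-fold higher, with summed signals of 4631.3 and 7573.9. They were led by C1qb (log2 ratio 1.15), Ptprc (0.79) and Csf1r (0.77), but C1qb had 0.24 on another measured probe set. Of the 7 markers 5 had log2 ratios above 0, and the lowest was -0.08. Of 9 interstitial and theca genes 8 were measured, and all 8 passed 1.5-fold upward on their brightest probe sets, with a median of 1.08. On other measured probe sets, Tcf21, Maf and Nr2f2 had log2 ratios as low as -0.11, 0.13 and 0.40. Tcf21, Maf and Nr2f2 were named with their values already seen. The control signals of Cyp17a1 and Cyp11a1 were under the minimum, and these genes were at least 93.3-fold and 70.6-fold higher on their brightest probe sets. The other measured Cyp11a1 probe set had a log2 ratio of only 0.26. Star was 18.0-fold higher, at 164.0 and 2945.3. The hedgehog target Ptch1 read 5574.4 and 15948.9 in control and mutant. The signal ratio of 3' to 5' probe sets also differed, at 8.48 and 10.5 for Actb and 3.28 and 4.98 for Gapdh in control and mutant. RNA quality may thus differ between the pools, and no other measure of it was used here.

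**Figure D4:**
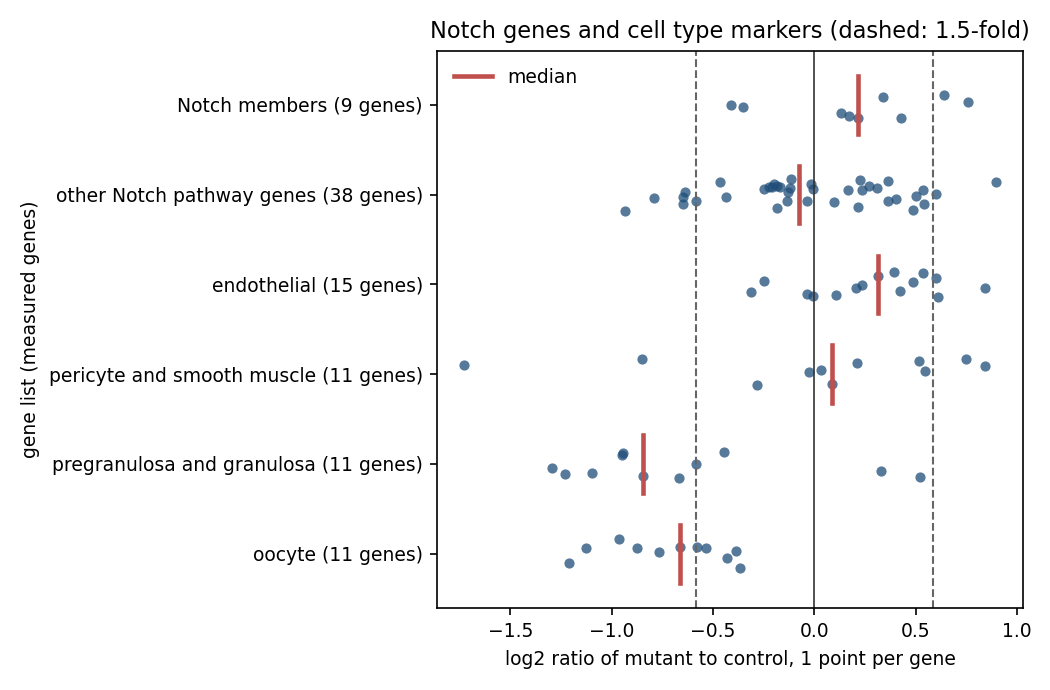
Log2 ratio of mutant to control for each measured gene (1 point per gene, its brightest measured probe set) of the members, the other Notch pathway genes and 4 cell type lists, with the median as a red line and 1.5-fold as dashed lines. The medians are 0.21 for the members, -0.08 for the other pathway genes, 0.32 for endothelial, 0.09 for pericyte and smooth muscle, -0.84 for pregranulosa and granulosa and -0.66 for oocyte markers.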

How the data were processed

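The authors deposited a linear signal intensity for each probe set and array, and GCOS is named in the submitters' processing notes, with settings not given in the sources used here. Each array's mean after trimming 2% of probe sets at either end was 500.003, which puts the pools on a shared scale, and the values were used as deposited. Of 45101 probe sets 34945 had 1 gene symbol in the platform annotation and were no array controls, 932 had several symbols and 9211 had none listed. All 10 members had the same symbol in a RefSeq table of GRCm38.p6 through their Entrez ID.

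The signal minimum (80.7) and the pseudocount (22.2, the 25th percentile) come from all values of both arrays. No detection calls were used here. The number of arrays limits the precision, and no test was run. The computation was checked on simulated data with Python 3.11.15, numpy 2.4.6 and pandas 2.3.3. That check put known folds without noise into bright probe sets, so it does not cover noise or dim probe sets. The members and lists were chosen with earlier results of these data known. The genes named are all members, the 8 other pathway genes with the largest absolute log2 ratio, the 3 such genes of each cell type list, and genes marked as named after their values were seen. Genes under the minimum are named only for their status, Rbpj for its role and Ptch1 as a check of the mutant pool. The roles that divide the pathway list were assigned after its values were seen, and 10 alternative settings were tried.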

Additional observations from a re-analysis of the deposited data

How the results depend on the processing

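Each of the 9 measured member genes kept the sign of its log2 ratio under every alternative that measured it, and no result changed sign. For a given probe set, another pseudocount or minimum cannot reverse the sign, so those settings could not have shown a reversal. Measured probe sets of Notch1, Jag1 and Heyl had both signs. Of 194 values under 10 alternatives, 183 stayed within the SD between probe sets of a gene (0.38), or within 1.5 times for counts. The counts of member probe sets past 1.5-fold are small and depended on the settings. The 2 higher became 0 when the median served as pseudocount, and 1 when the minimum was raised to percentile 75, when both signals had to reach the minimum, or when probe sets shared between transcripts were dropped. The 1 lower became 0 with the raised minimum. Without the shared probe sets the log2 ratio of Notch3 was 0.24, and without any minimum that of Dll4 was 0.11. Of the other pathway genes, examined after seeing the data, the 2 higher became 1 with quantile normalization or without the shared probe sets. The 5 lower became 3 with the larger pseudocount and 2 with the raised minimum or without the shared probe sets. Fewer probe sets are tested in the stricter settings, and the other causes were not tested. No paired analysis was possible because each group has 1 array, and no array could be left out.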

Other observations

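In each of the 5 member genes with more than 1 measured probe set (Notch1, Notch3, Jag1, Jag2 and Heyl), the brightest had a higher log2 ratio than the dimmest, by 0.27 to 0.54. Over all 5118 genes with more than 1 measured probe set this order held in 60.1%, with a median difference of 0.13. With plain signal ratios and both signals at or above the minimum, it held in 5 of 5 member genes and in 59.4% of 4530 genes. The pattern was noticed after the values were seen, and its cause was not tested.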
